A study of Homo sapiens with 9 samples.

Results

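The genes described here make ribosomes. They are 49 listed ribosome biogenesis and ribosomal RNA (rRNA) processing genes, whose transcripts were counted in A549 cells carrying hairpins against PRMT5, MEP50 or GFP. The list was chosen by measured values, the read counts of the PRMT5 and MEP50 knockdowns in these same libraries, in which the genes named UTP were higher with PRMT5 knocked down, so the difference between those 2 groups is given below as a description and without a test. An Ensembl ID of the count table was matched for 48 of the 49 symbols, out of 51796 genes in the table, and all 48 had enough counts to be tested among 14582 genes. BOP1 was not matched and is not analysed here.

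A549 is an established human lung adenocarcinoma cell line. The PRMT5 knockdown, the MEP50 knockdown and the GFP control had 3 libraries each, which the labels call biological replicates. All 9 came from cells with a stably expressed short hairpin, grown in RPMI medium with 10% serum and selected in puromycin at 1 µg/ml, so the control cells also carried a hairpin and the drug. The labels name 1 target per group and do not tell separate clones or hairpins apart, so effects of a hairpin other than on its target cannot be told apart from the knockdown. Total RNA was depleted of rRNA and made into stranded libraries, so mature rRNA itself was not measured. PRMT5 is an enzyme that adds symmetric methyl groups to arginines, and MEP50, the product of the WDR77 gene, is the WD-repeat protein that binds it and presents substrates.

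In the nucleolus, RNA polymerase I transcribes a long precursor that holds the rRNAs of both ribosomal subunits. The small subunit processome, built around the U3 small nucleolar RNA (snoRNA) and the UTP proteins, assembles on the precursor while it is still being made and guides its first cuts. The UTP-A complex, also called t-UTP, binds first and is tied to transcription, and the UTP-B complex follows it. Box C/D snoRNA-protein particles (snoRNPs) methylate rRNA riboses and box H/ACA particles turn uridines into pseudouridines, while other factors fold the large subunit and release the late small subunit to the cytoplasm. The genes are known as a set whose transcripts often move with growth and with MYC, a factor that binds the DNA hexamer CACGTG, the E-box.

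Between 20806181 and 31586128 reads fell on genes in each library. The targets followed their labels. PRMT5 had 70.1, 67.5 and 69.2 CPM (read counts per fixed number of reads on genes, scaled by the trimmed mean of M-values, TMM) in the PRMT5 knockdown, 211, 199.7 and 200.4 CPM in the MEP50 knockdown and 212, 209 and 205 CPM in the GFP control. WDR77 had 43.2, 46.9 and 42.1 CPM in the PRMT5 knockdown, 13.6, 10.7 and 13.3 CPM in the MEP50 knockdown and 39.2, 39.6 and 39.3 CPM in the GFP control. Of 6 epithelial markers, KRT8, KRT18, KRT7 and CDH1 were read in every library, whereas KRT19 had 0 to 2 reads and EPCAM 3 to 7 reads. The summed level of the 6 was 4225 ± 80.9 CPM in the PRMT5 knockdown, 4018 ± 139 CPM in the MEP50 knockdown and 6460.4 ± 115 CPM in the GFP control (SD, n = 3). That sum is almost all KRT8 and KRT18, which averaged 2414 and 2434 CPM over all libraries, against 50.2 CPM for CDH1 and 3.32 CPM for KRT7. It therefore does not describe the other markers. Markers of other cell types summed to at most 0.279 CPM in any library, with CD3E and HBB at 0. The share of reads outside annotated genes was 14.2% ± 0.453 in the PRMT5 knockdown, 13.2% ± 0.753 in the MEP50 knockdown and 12.1% ± 0.296 in the GFP control. The part of either measure in the results below was not tested. CPM is a share of a library, so in these bulk samples fewer cells of a type and less RNA per cell cannot be told apart.

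In the GFP control, levels per 1000 bases of exon ran from 6.01 CPM for UTP25 to 677.7 CPM for NPM1, with a median of 21.9 CPM over the 48 genes. NPM1, NCL and NOLC1, abundant nucleolar phosphoproteins, were the 3 above 100 CPM per 1000 bases, and 21 genes were under 20. Summed without length scaling, the 48 genes took 10971 ± 176 CPM in the PRMT5 knockdown, 9890.4 ± 249.9 CPM in the MEP50 knockdown and 9799 ± 11.2 CPM in the GFP control (SD, n = 3). Without NPM1 and NCL the sums were 6066 ± 60.2 CPM in the PRMT5 knockdown, 5310 ± 149.9 CPM in the MEP50 knockdown and 5379 ± 31.6 CPM in the GFP control. Every PRMT5-knockdown library lay above every library of the other groups in both sums, and the MEP50 knockdown overlapped the GFP control in both.

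Both knockdowns were first set together against the GFP control, since the mean of both does not depend on the difference between them that the list was drawn from. Of the 48 genes, 21 were higher and 9 lower at an edgeR adjusted p below 0.05, and 18 did not pass. Among all genes tested, 26.8% were higher and 26.9% lower in this comparison. The median log2 fold change was 0.047 over the 48 genes and -0.0021 over all genes. Values of single genes ran from -0.33 for UTP25 to 0.50 for UBTF. UBTF, NOB1, UTP4 and UTP14A had the largest increases, and UTP25, BYSL, RRP12 and UTP20 the largest decreases. A call in the mean does not need a call in each knockdown. In the separate comparisons described next, 12 genes (25%) were called higher in both knockdowns, against 17.7% of all genes. Called lower in both were 2 (4.17%), against 15.5% of all genes. NOP58, lower in the mean, was called higher in the PRMT5 knockdown.

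Each knockdown was then compared with the GFP control on its own. These comparisons share the GFP libraries with each other and share the knockdown libraries with the difference that chose the list, so the counts describe the genes and do not test the choice. In the PRMT5 knockdown 32 of 48 genes were higher, 2 were lower and 14 did not pass, against 26.1% higher and 24.9% lower over all genes, and the median log2 fold change was 0.17. In the MEP50 knockdown 12 genes were higher, 17 were lower and 19 did not pass, against 26.5% higher and 25.2% lower over all genes, and the median was -0.025. The 2 genes lower in the PRMT5 knockdown were UTP25 and BYSL. Without GFP control replicate 1 or 2 or PRMT5 knockdown replicate 1, 1 library at a time, the BYSL call was lost and the count was 1.

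**Figure D1:**
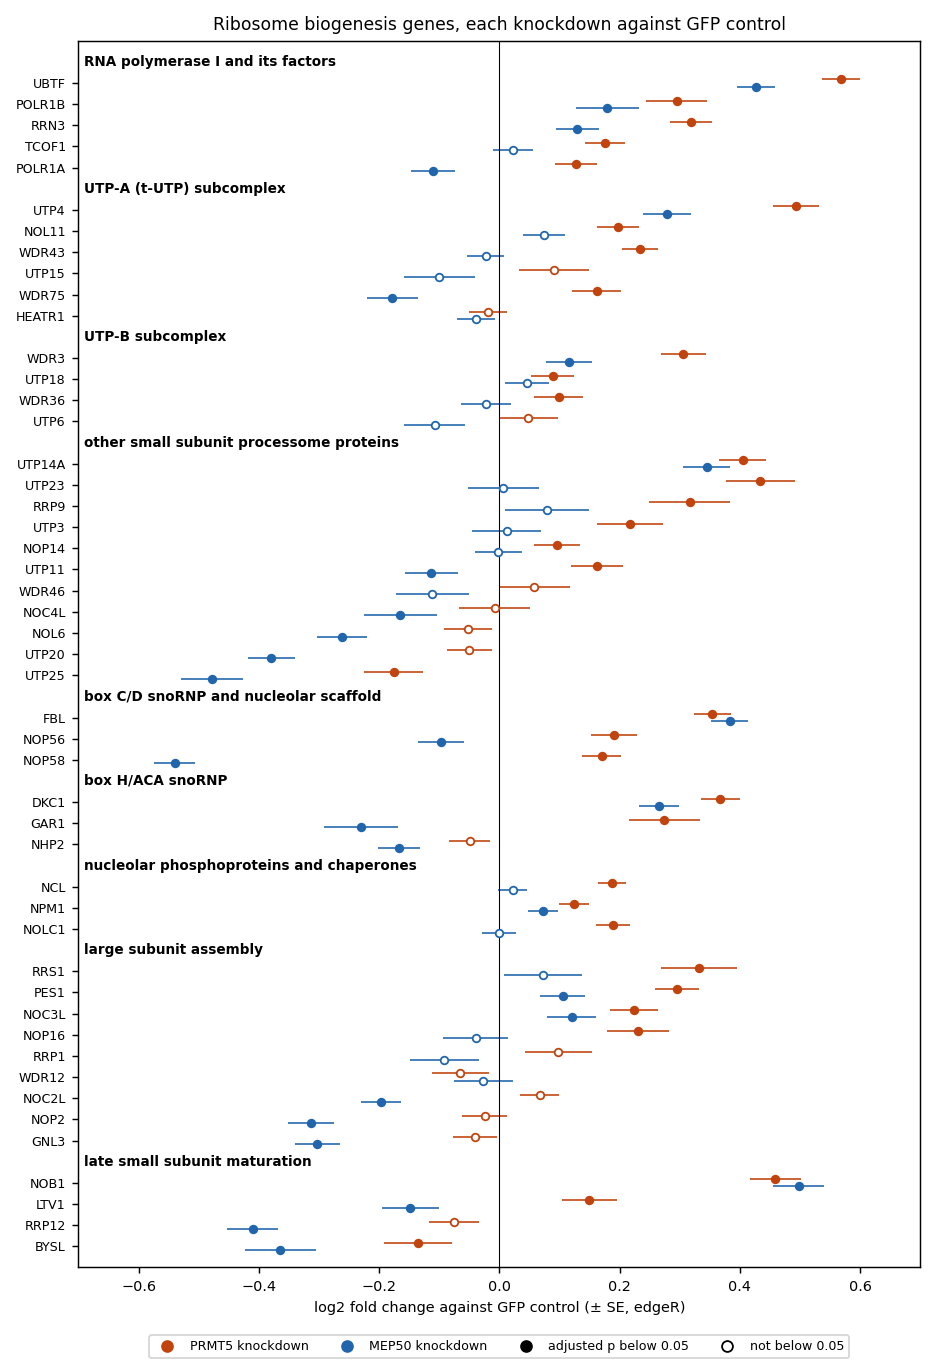
Log2 fold changes (± SE, edgeR) of the 48 genes against the GFP control, by role, with PRMT5-knockdown values in orange and MEP50-knockdown values in blue; filled points have an adjusted p below 0.05. Most orange points lie right of 0, with 32 called higher, while the blue points lie on both sides, with 12 called higher and 17 lower.

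Placed against each other, the PRMT5 knockdown had the higher log2 level for 45 of the 48 genes and the lower one for 3, FBL, NOB1 and WDR12, whose differences were -0.029, -0.038 and -0.038. The median of the PRMT5 minus MEP50 log2 difference was 0.19, and over all genes 7323 of 14582 were above 0. For 37 genes every PRMT5-knockdown library lay above every MEP50-knockdown library, which held for 23.1% of all genes tested, and for none did every library lie below, which held for 24.2%. All 10 genes named UTP were on the PRMT5 side, 9 of them without overlap, UTP14A being the exception. As this contrast chose the genes, nothing is read from these counts. The smallest differences among the UTP genes were 0.043 for UTP18 and 0.06 for UTP14A.

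**Figure D2:**
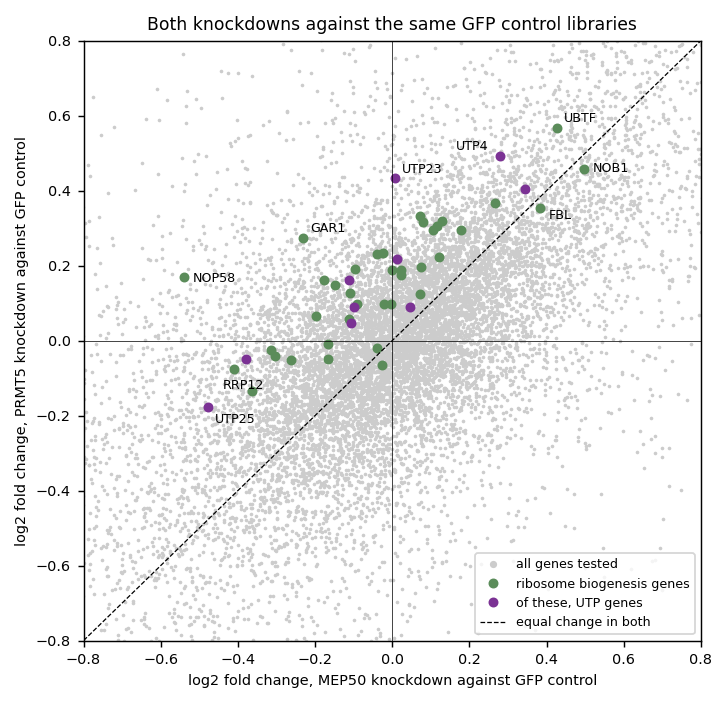
Log2 fold change against the GFP control in the MEP50 knockdown (horizontal axis) and the PRMT5 knockdown (vertical axis) for tested genes that fall within the axes (grey), the ribosome biogenesis genes (green) and, of these, the UTP genes (purple); the dashed line marks equal change and both axes share the GFP libraries. Of the 48 genes, 45 lie above the dashed line and 3 below it, with NOP58 farthest from it.

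The choice of the genes did not use their promoter sequences. RefSeq promoter windows on GRCh38.p14, from 250 bases before the transcript start to 50 after it, were at hand for 42 of the 49 genes. Of these, 6 had more than 1 start listed, and a gene was counted when the window of any listed start held the motif. GAR1 and GNL3 held the E-box hexamer at only some of their listed starts. The E-box hexamer CACGTG, which reads the same on both strands, was in the window of 18 of 42 genes (42.9%, 95% exact interval 27.7% to 59.0%). The hexamer was in 12.4% of the 10403 tested genes with such a window. Among all 27305 genes with such a window, in the count table or not, it was in 8.77%. The other motifs searched, on both strands, were CCGGAAG (the ETS family's core), the NRF1 core (GCGC and GCGC with 2 bases of any kind between) and CCAAT (the NF-Y box). CCGGAAG was in 35.7% of the 42 genes against 22.2% of tested genes, the NRF1 core in 26.2% against 18.7%, and CCAAT in 42.9% against 43.2%. A match is a description of letters and does not show that a factor binds, and the interval covers the number of genes alone.

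**Figure D3:**
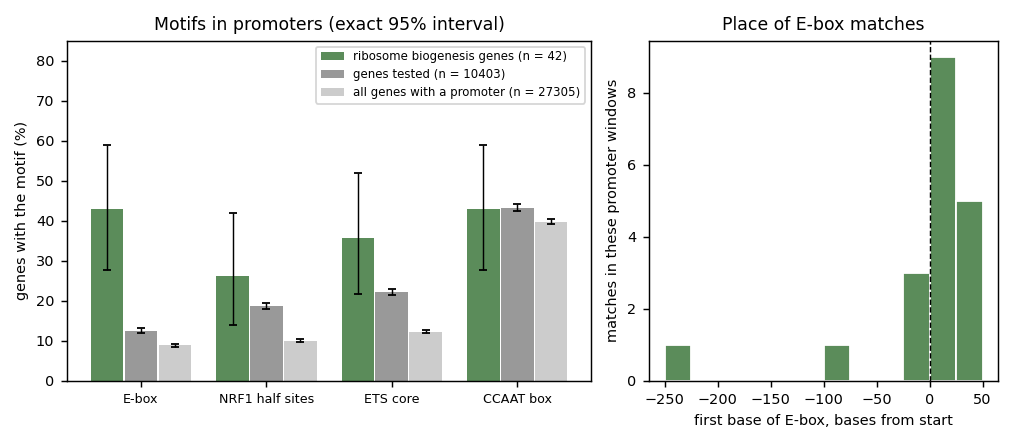
Left, share of genes (percent, bars, with 95% exact intervals) whose RefSeq promoter window holds each of the 4 motifs. Bars are for the ribosome biogenesis genes, the tested genes and all genes with a RefSeq promoter window. Right, number of E-box matches in the ribosome biogenesis genes by distance from the transcript start in bases. For the E-box the 3 bars are at 42.9%, 12.4% and 8.77%, and 14 of the 19 matches lie at or past the start.

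Of 19 matches in the 42 genes' windows, 14 (73.7%) began at or after the start, whereas 10.1% of the matches of tested genes did. With the 250 bases before the start alone, 4 of 42 genes (9.52%) held the hexamer, against 11.1% of tested genes. To show these sites, 30-base windows are printed here 5′ to 3′ on the gene's strand with the hexamer in capitals, for genes lower in the mean of both knockdowns (BYSL, GNL3, NOL6, NOP2, UTP25), for genes higher in it (UTP4, FBL) and for genes called in opposite directions in the separate knockdowns (GAR1, LTV1).
BYSL (chr6:41921515-41921544, plus strand): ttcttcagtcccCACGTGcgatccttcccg
GNL3 (chr3:52686026-52686055, plus strand): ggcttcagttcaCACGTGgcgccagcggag
NOL6 (chr9:33473894-33473923, minus strand): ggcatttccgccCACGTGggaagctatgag
NOP2 (chr12:6568242-6568271, minus strand): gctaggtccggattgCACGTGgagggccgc
UTP25 (chr1:209827974-209828003, plus strand): agtcagcgagccCACGTGcttgtgttgact
UTP4 (chr16:69132621-69132650, plus strand): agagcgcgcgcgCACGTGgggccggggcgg
FBL (chr19:39846356-39846385, minus strand): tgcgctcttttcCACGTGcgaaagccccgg
GAR1 (chr4:109815781-109815810, plus strand): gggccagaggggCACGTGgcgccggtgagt
LTV1 (chr6:143843354-143843383, plus strand): gtcctggggctgCACGTGtggtgaggccta

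Whole windows follow for UTP4, the UTP gene with the largest increase in the PRMT5 knockdown, for UTP18, whose level moved least among the UTP genes called, and for UTP20, which fell in the MEP50 knockdown. Capitals mark every match to any of the 4 motifs, on either strand, and matches that touch or overlap run together, as the NRF1 core and CACGTG do in UTP4. All are RefSeq sequence on GRCh38.p14.
UTP4 (chr16:69132399-69132698, plus strand): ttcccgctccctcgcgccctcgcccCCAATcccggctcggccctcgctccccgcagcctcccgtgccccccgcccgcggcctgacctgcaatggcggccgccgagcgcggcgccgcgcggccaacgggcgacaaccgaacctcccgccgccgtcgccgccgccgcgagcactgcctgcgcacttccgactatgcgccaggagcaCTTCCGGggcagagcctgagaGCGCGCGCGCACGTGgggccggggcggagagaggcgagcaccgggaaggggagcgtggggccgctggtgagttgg
UTP18 (chr17:51260296-51260595, plus strand): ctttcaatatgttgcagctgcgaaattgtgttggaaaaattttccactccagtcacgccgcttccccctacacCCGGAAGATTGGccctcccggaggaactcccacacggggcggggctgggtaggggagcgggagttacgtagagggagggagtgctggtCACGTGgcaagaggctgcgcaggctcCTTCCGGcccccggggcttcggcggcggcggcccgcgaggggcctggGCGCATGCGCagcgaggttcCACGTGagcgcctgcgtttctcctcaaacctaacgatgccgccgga
UTP20 (chr12:101279855-101280154, plus strand): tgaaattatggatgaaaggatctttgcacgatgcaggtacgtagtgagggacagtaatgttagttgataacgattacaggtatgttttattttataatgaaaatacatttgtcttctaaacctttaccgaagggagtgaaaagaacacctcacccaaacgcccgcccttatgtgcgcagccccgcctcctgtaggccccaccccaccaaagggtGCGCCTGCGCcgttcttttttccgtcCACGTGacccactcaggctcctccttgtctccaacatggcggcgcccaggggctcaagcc

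The hexamer was found among genes of every call. By the mean of both knockdowns, it was in the window of 7 of 17 genes called higher, 6 of 7 called lower and 5 of 18 not called. Counted the other way, 38.9% of the 18 ribosome biogenesis genes with it were higher and 33.3% lower. Of the 24 without it, 41.7% were higher and 4.17% lower. Among tested genes, 29% of those with it were higher and 28.8% lower, and of those without it 29.1% were higher and 29% lower. The difference between these shares was not tested.

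The genes are described by role in what follows. With 3 to 11 genes a role, the counts called are descriptions, beside shares over all genes of 26.1% higher and 24.9% lower in the PRMT5 knockdown, 26.5% higher and 25.2% lower in the MEP50 knockdown, and 26.8% higher and 26.9% lower in the mean of both.

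RNA polymerase I and its factors were higher in the PRMT5 knockdown for 5 of 5 genes, and in the MEP50 knockdown for 3, with 1 lower. The mean of both was higher for 4 of the 5. This did not extend to 10 other genes of the role, taken from the wider list described below. In the PRMT5 knockdown 2 of those 10 were higher and 1 lower, with a median log2 fold change of 0.0082. In the MEP50 knockdown 3 of them were higher and 4 lower, and in the mean of both 2 were higher and 3 lower. UBTF encodes the HMG-box protein that coats the ribosomal DNA and its promoter. UBTF (ENSG00000108312) had 224, 229 and 230.0 CPM in the PRMT5 knockdown, 201, 211 and 207 CPM in the MEP50 knockdown and 151, 158 and 152 CPM in the GFP control. The 3 groups did not overlap, with the PRMT5 knockdown highest and the GFP control lowest. UBTF had a log2 fold change of 0.57 ± 0.0311 (SE) in the PRMT5 knockdown (edgeR adjusted p = 5.83e-19) and of 0.43 ± 0.0315 in the MEP50 knockdown (adjusted p = 6.86e-15). UBTF averaged a log2 fold change of 0.50 ± 0.0275 over both knockdowns (SE, edgeR adjusted p = 6.88e-19). POLR1A, the largest subunit of the polymerase, moved in opposite directions. POLR1A (ENSG00000068654) had 144, 147 and 149 CPM in the PRMT5 knockdown, 122, 122 and 129 CPM in the MEP50 knockdown and 130.1, 139 and 133 CPM in the GFP control. Every PRMT5-knockdown library lay above the GFP libraries and every MEP50-knockdown library below them. POLR1A had a log2 fold change of 0.13 ± 0.0354 (SE) in the PRMT5 knockdown (edgeR adjusted p = 0.00263) and of -0.11 ± 0.0363 in the MEP50 knockdown (adjusted p = 0.00984). The call of POLR1A in the MEP50 knockdown was lost in edgeR without GFP control replicate 2 or MEP50 knockdown replicate 2, 1 library at a time (log2 fold change -0.087 to -0.092, adjusted p 0.0607 to 0.079).

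POLR1B, the partner of POLR1A in the catalytic core, was higher in both knockdowns. POLR1B (ENSG00000125630) had 79.5, 81.6 and 83.6 CPM in the PRMT5 knockdown, 84.6, 72.9 and 69.2 CPM in the MEP50 knockdown and 64.3, 67.3 and 67.9 CPM in the GFP control. Both knockdowns lay above the GFP control and overlapped each other. POLR1B had a log2 fold change of 0.29 ± 0.0508 (SE) in the PRMT5 knockdown (edgeR adjusted p = 6.98e-06) and of 0.18 ± 0.0520 in the MEP50 knockdown (adjusted p = 0.00387). The call of POLR1B in the MEP50 knockdown was lost in edgeR without MEP50 knockdown replicate 1 (log2 fold change 0.10, adjusted p = 0.0889). RRN3 carries the polymerase to its promoter. RRN3 (ENSG00000085721) had 153, 149 and 156 CPM in the PRMT5 knockdown, 129, 135 and 137 CPM in the MEP50 knockdown and 123, 124 and 119.7 CPM in the GFP control. The groups did not overlap, with the PRMT5 knockdown highest and the GFP control lowest. RRN3 had a log2 fold change of 0.32 ± 0.0348 (SE) in the PRMT5 knockdown (edgeR adjusted p = 3.49e-10) and of 0.13 ± 0.0355 in the MEP50 knockdown (adjusted p = 0.00222). TCOF1, the nucleolar scaffold treacle, was higher in the PRMT5 knockdown. TCOF1 (ENSG00000070814) had 217, 226 and 226 CPM in the PRMT5 knockdown, 209, 203 and 191 CPM in the MEP50 knockdown and 199, 202 and 193 CPM in the GFP control. The MEP50 knockdown overlapped the GFP control. TCOF1 had a log2 fold change of 0.18 ± 0.0329 (SE) in the PRMT5 knockdown (edgeR adjusted p = 2.12e-05) and of 0.022 ± 0.0334 in the MEP50 knockdown (adjusted p = 0.607). The call of TCOF1 over the mean of both was lost in edgeR without GFP control replicate 3 (log2 fold change 0.076, adjusted p = 0.0585).

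The UTP-A proteins, which load first on the growing precursor, were higher in the PRMT5 knockdown for 4 of 6 genes, and in the MEP50 knockdown 1 was higher and 1 lower. The mean of both was higher for 3 and lower for none. UTP4, also known as cirhin, is a WD-repeat member of the complex. UTP4 (ENSG00000141076) had 131, 129 and 138 CPM in the PRMT5 knockdown, 115, 118 and 109.8 CPM in the MEP50 knockdown and 96.1, 90.5 and 96.1 CPM in the GFP control. The groups did not overlap, and the MEP50 knockdown lay between the others. UTP4 had a log2 fold change of 0.49 ± 0.0387 (SE) in the PRMT5 knockdown (edgeR adjusted p = 4.23e-14) and of 0.28 ± 0.0396 in the MEP50 knockdown (adjusted p = 1.32e-07). UTP4 averaged a log2 fold change of 0.39 ± 0.0343 over both knockdowns (SE, edgeR adjusted p = 1.21e-12). UTP15, a WD-repeat partner of UTP4, passed in neither knockdown. UTP15 (ENSG00000164338) had 52.4, 52.7 and 53.8 CPM in the PRMT5 knockdown, 50.5, 40.8 and 47.9 CPM in the MEP50 knockdown and 50.2, 47.1 and 52.2 CPM in the GFP control. Its MEP50-knockdown libraries spread across and below the GFP range. UTP15 had a log2 fold change of 0.091 ± 0.0575 (SE) in the PRMT5 knockdown (edgeR adjusted p = 0.193) and of -0.10 ± 0.0593 in the MEP50 knockdown (adjusted p = 0.16). WDR75 went in opposite directions. WDR75 (ENSG00000115368) had 95.9, 96.5 and 102 CPM in the PRMT5 knockdown, 81.1, 76.0 and 76.0 CPM in the MEP50 knockdown and 90.5, 88.5 and 84.5 CPM in the GFP control. Its PRMT5-knockdown libraries were all above and its MEP50-knockdown libraries all below the GFP control. WDR75 had a log2 fold change of 0.16 ± 0.0414 (SE) in the PRMT5 knockdown (edgeR adjusted p = 0.00118) and of -0.18 ± 0.0429 in the MEP50 knockdown (adjusted p = 0.000572).

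NOL11, a metazoan member of the UTP-A complex, rose in the PRMT5 knockdown by 0.20 ± 0.0345 (log2 fold change, SE, edgeR adjusted p = 7.00e-06) and had a log2 fold change of 0.075 ± 0.0351 in the MEP50 knockdown (adjusted p = 0.0728). WDR43 rose in the PRMT5 knockdown by 0.23 ± 0.0299 (log2 fold change, SE, edgeR adjusted p = 1.47e-08) and had a log2 fold change of -0.023 ± 0.0304 in the MEP50 knockdown (adjusted p = 0.563). HEATR1, the large HEAT-repeat subunit, passed in neither, with log2 fold changes of -0.019 ± 0.0314 in the PRMT5 knockdown (SE, edgeR adjusted p = 0.643) and -0.038 ± 0.0317 in the MEP50 knockdown (adjusted p = 0.329), and its 3 groups overlapped.

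In the UTP-B complex, which follows UTP-A onto the precursor, 3 of 4 genes were higher and none lower in the PRMT5 knockdown, against 1 higher and none lower in the MEP50 knockdown. WDR3 had the largest change of the 4. It rose by 0.31 ± 0.0377 in the PRMT5 knockdown (log2 fold change, SE, edgeR adjusted p = 6.68e-09) and by 0.12 ± 0.0386 in the MEP50 knockdown (adjusted p = 0.0111). UTP18 (ENSG00000011260) had 113, 112 and 113 CPM in the PRMT5 knockdown, 111, 109 and 108 CPM in the MEP50 knockdown and 106, 107 and 104 CPM in the GFP control. The groups did not overlap, yet they lay within a few CPM of each other. UTP18 had a log2 fold change of 0.089 ± 0.0359 (SE) in the PRMT5 knockdown (edgeR adjusted p = 0.0367) and of 0.046 ± 0.0365 in the MEP50 knockdown (adjusted p = 0.305). UTP6, a helical-repeat protein of the complex, passed in neither knockdown. UTP6 (ENSG00000108651) had 62.2, 61.4 and 57.2 CPM in the PRMT5 knockdown, 56.0, 51.4 and 54.7 CPM in the MEP50 knockdown and 59.1, 56.0 and 59.7 CPM in the GFP control. UTP6 had a log2 fold change of 0.048 ± 0.0492 (SE) in the PRMT5 knockdown (edgeR adjusted p = 0.439) and of -0.11 ± 0.0506 in the MEP50 knockdown (adjusted p = 0.0726). Its PRMT5-knockdown libraries overlapped the GFP range and its MEP50-knockdown libraries lay below it. WDR36, a WD-repeat member, had a log2 fold change of 0.10 ± 0.0408 in the PRMT5 knockdown (SE, edgeR adjusted p = 0.0411) and -0.022 ± 0.0416 in the MEP50 knockdown (adjusted p = 0.684), with overlapping groups. The call of UTP18 in the PRMT5 knockdown was lost in edgeR without GFP control replicate 1, 2 or 3 or PRMT5 knockdown replicate 1, 2 or 3 or MEP50 knockdown replicate 2 or 3, 1 library at a time (log2 fold change 0.07 to 0.10, adjusted p 0.0547 to 0.16), and under 4 other settings. The call of WDR36 in the PRMT5 knockdown was lost in edgeR without GFP control replicate 2 or 3 or PRMT5 knockdown replicate 1 or 2 or MEP50 knockdown replicate 1, 2 or 3, 1 library at a time (log2 fold change 0.062 to 0.093, adjusted p 0.0559 to 0.276), and under 6 other settings. The call of WDR3 in the MEP50 knockdown was lost in edgeR without GFP control replicate 1 or MEP50 knockdown replicate 3, 1 library at a time (log2 fold change 0.079 to 0.10, adjusted p 0.0536 to 0.138).

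**Figure D4:**
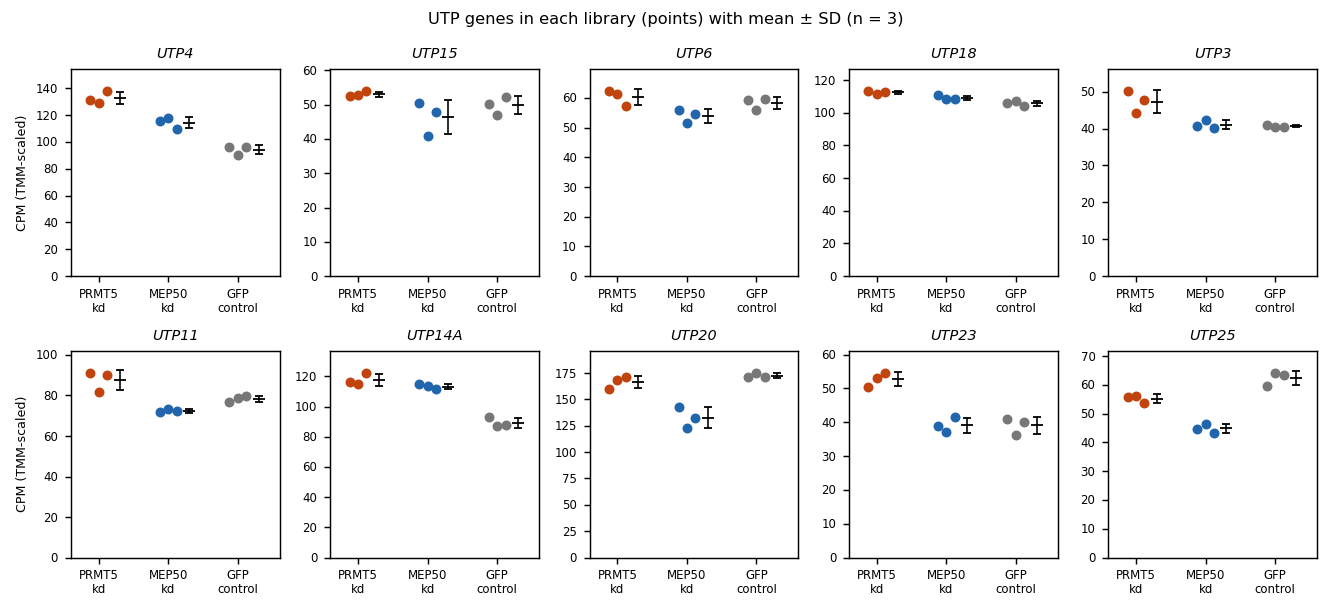
TMM-scaled CPM of the 10 genes named UTP in each library (points) with mean ± SD (n = 3), for the PRMT5 knockdown, the MEP50 knockdown and the GFP control. UTP4 and UTP14A are above the GFP control in both knockdowns, UTP25 is below it in both, and UTP20 is below it in the MEP50 knockdown.

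Of the 11 other processome genes, 6 were higher and 1 lower in the PRMT5 knockdown, and 1 was higher and 5 lower in the MEP50 knockdown. The mean of both was higher for 4 and lower for 3. UTP14A, which works with an RNA helicase late in the processome, was the gene higher in both. UTP14A (ENSG00000156697) had 116, 115 and 122 CPM in the PRMT5 knockdown, 115, 113 and 111 CPM in the MEP50 knockdown and 92.7, 86.9 and 87.7 CPM in the GFP control. Both knockdowns lay above the GFP control and overlapped each other. UTP14A had a log2 fold change of 0.40 ± 0.0385 (SE) in the PRMT5 knockdown (edgeR adjusted p = 9.86e-12) and of 0.34 ± 0.0392 in the MEP50 knockdown (adjusted p = 8.47e-10). UTP14A averaged a log2 fold change of 0.37 ± 0.0340 over both knockdowns (SE, edgeR adjusted p = 2.20e-12). UTP23 encodes a protein with a PIN-like domain. UTP23 (ENSG00000147679) had 50.5, 53.0 and 54.6 CPM in the PRMT5 knockdown, 38.9, 37.0 and 41.5 CPM in the MEP50 knockdown and 40.9, 36.3 and 40.023 CPM in the GFP control. The PRMT5 knockdown stood above the other groups, which overlapped. UTP23 had a log2 fold change of 0.43 ± 0.0569 (SE) in the PRMT5 knockdown (edgeR adjusted p = 2.57e-08) and of 0.0067 ± 0.0595 in the MEP50 knockdown (adjusted p = 0.936). UTP3, the human SAS10, was higher in the PRMT5 knockdown. UTP3 (ENSG00000132467) had 50.1, 44.1 and 47.8 CPM in the PRMT5 knockdown, 40.6, 42.4 and 40.1 CPM in the MEP50 knockdown and 40.9, 40.5 and 40.6 CPM in the GFP control. Here too the MEP50 knockdown overlapped the GFP control. UTP3 had a log2 fold change of 0.22 ± 0.0550 (SE) in the PRMT5 knockdown (edgeR adjusted p = 0.00102) and of 0.012 ± 0.0569 in the MEP50 knockdown (adjusted p = 0.882). The call of UTP3 over the mean of both was lost in edgeR without GFP control replicate 1, 2 or 3 or PRMT5 knockdown replicate 1 or 3 or MEP50 knockdown replicate 2 or 3, 1 library at a time (log2 fold change 0.087 to 0.12, adjusted p 0.0565 to 0.142), and under 5 other settings.

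UTP25, UTP20, UTP11 and NOL6 were among the genes that fell in the MEP50 knockdown. UTP25, whose zebrafish counterpart is needed for the growth of digestive organs, was lower in both knockdowns. UTP25 (ENSG00000117597) had 55.9, 56.3 and 53.5 CPM in the PRMT5 knockdown, 44.6, 46.5 and 43.4 CPM in the MEP50 knockdown and 59.4, 64.1 and 63.4 CPM in the GFP control. The MEP50 knockdown was lowest and the groups did not overlap. UTP25 had a log2 fold change of -0.18 ± 0.0490 (SE) in the PRMT5 knockdown (edgeR adjusted p = 0.00265) and of -0.48 ± 0.0510 in the MEP50 knockdown (adjusted p = 1.77e-10). UTP25 averaged a log2 fold change of -0.33 ± 0.0427 over both knockdowns (SE, edgeR adjusted p = 2.07e-08). UTP20 encodes a very large helical-repeat protein that holds the particle together. UTP20 (ENSG00000120800) had 160.0, 169 and 171 CPM in the PRMT5 knockdown, 143, 123 and 132 CPM in the MEP50 knockdown and 171, 175 and 171 CPM in the GFP control. The PRMT5 knockdown overlapped the GFP control, and the MEP50 knockdown lay below both. UTP20 had a log2 fold change of -0.05 ± 0.0378 (SE) in the PRMT5 knockdown (edgeR adjusted p = 0.281) and of -0.38 ± 0.0388 in the MEP50 knockdown (adjusted p = 1.10e-10). UTP20 averaged a log2 fold change of -0.21 ± 0.0329 over both knockdowns (SE, edgeR adjusted p = 7.02e-07). UTP11 had opposite calls. UTP11 (ENSG00000183520) had 91.1, 81.9 and 90.1 CPM in the PRMT5 knockdown, 71.7, 73.4 and 72.1 CPM in the MEP50 knockdown and 76.7, 78.6 and 79.7 CPM in the GFP control. UTP11 had a log2 fold change of 0.16 ± 0.0431 (SE) in the PRMT5 knockdown (edgeR adjusted p = 0.00167) and of -0.11 ± 0.0445 in the MEP50 knockdown (adjusted p = 0.0314). The libraries of the 2 knockdowns lay on opposite sides of the GFP range. The call of UTP11 in the MEP50 knockdown was lost in edgeR without GFP control replicate 2 or 3 or MEP50 knockdown replicate 1 or 3, 1 library at a time (log2 fold change -0.10 to -0.12, adjusted p 0.0591 to 0.107).

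NOL6, the human UTP22, had a log2 fold change of -0.052 ± 0.0399 in the PRMT5 knockdown (SE, edgeR adjusted p = 0.289) and fell in the MEP50 knockdown with -0.26 ± 0.0410 (adjusted p = 8.43e-07). NOC4L, a partner of NOP14, had a log2 fold change of -0.0078 ± 0.0587 in the PRMT5 knockdown (SE, edgeR adjusted p = 0.925) and -0.17 ± 0.0606 in the MEP50 knockdown (adjusted p = 0.0208). RRP9, the box C/D protein particular to the U3 snoRNA, rose in the PRMT5 knockdown by 0.32 ± 0.0674 (log2 fold change, SE, edgeR adjusted p = 0.00013) and had a log2 fold change of 0.079 ± 0.0699 in the MEP50 knockdown (adjusted p = 0.366). NOP14, a scaffold of the early particle, had a log2 fold change of 0.10 ± 0.0381 in the PRMT5 knockdown (SE, edgeR adjusted p = 0.0326), and WDR46, the human UTP7, passed in neither. The call of NOC4L in the MEP50 knockdown was lost in edgeR without GFP control replicate 1 or 3 or MEP50 knockdown replicate 1 or 2, 1 library at a time (log2 fold change -0.14 to -0.16, adjusted p 0.0599 to 0.0926). The call of NOP14 in the PRMT5 knockdown was lost in edgeR without GFP control replicate 1 or 3 or PRMT5 knockdown replicate 1, 2 or 3 or MEP50 knockdown replicate 3, 1 library at a time (log2 fold change 0.057 to 0.10, adjusted p 0.0555 to 0.281), and under 3 other settings.

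NOP58 and GAR1, genes of the core snoRNP proteins, had the largest PRMT5 minus MEP50 log2 differences of the 48 genes, 0.71 and 0.50. In the PRMT5 knockdown the 3 box C/D genes were all higher, and in the MEP50 knockdown 1 was higher and 2 lower. FBL encodes fibrillarin, the methyltransferase of the box C/D particle. FBL (ENSG00000105202) had 277, 273 and 276 CPM in the PRMT5 knockdown, 271, 291 and 281 CPM in the MEP50 knockdown and 209.7, 218 and 218 CPM in the GFP control. Both knockdowns lay above the GFP control and overlapped each other. FBL had a log2 fold change of 0.35 ± 0.0304 (SE) in the PRMT5 knockdown (edgeR adjusted p = 5.56e-13) and of 0.38 ± 0.0306 in the MEP50 knockdown (adjusted p = 6.80e-14). FBL averaged a log2 fold change of 0.37 ± 0.0267 over both knockdowns (SE, edgeR adjusted p = 3.28e-15). NOP56 and NOP58 are the paired scaffold proteins on which the box C/D particle is built. NOP58 (ENSG00000055044) had 188, 195 and 198 CPM in the PRMT5 knockdown, 123, 116 and 116 CPM in the MEP50 knockdown and 170.5, 175 and 171 CPM in the GFP control. The MEP50 knockdown was lowest by a wide margin, and the PRMT5 knockdown was above the GFP control. NOP58 had a log2 fold change of 0.17 ± 0.0329 (SE) in the PRMT5 knockdown (edgeR adjusted p = 3.33e-05) and of -0.54 ± 0.0343 in the MEP50 knockdown (adjusted p = 6.31e-17). NOP58 averaged a log2 fold change of -0.18 ± 0.0288 over both knockdowns (SE, edgeR adjusted p = 7.72e-07). NOP56 (ENSG00000101361) had 321, 316 and 322 CPM in the PRMT5 knockdown, 288, 248 and 250.4 CPM in the MEP50 knockdown and 283, 279.8 and 277 CPM in the GFP control. NOP56 had a log2 fold change of 0.19 ± 0.0377 (SE) in the PRMT5 knockdown (edgeR adjusted p = 0.000117) and of -0.10 ± 0.0383 in the MEP50 knockdown (adjusted p = 0.0344). The first MEP50-knockdown library was above the GFP range and the others below it. The call of NOP56 in the MEP50 knockdown was lost in edgeR without GFP control replicate 1 or 2 or MEP50 knockdown replicate 2 or 3, 1 library at a time (log2 fold change -0.057 to -0.10, adjusted p 0.0615 to 0.23).

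Of the 3 box H/ACA genes, 2 were higher in the PRMT5 knockdown, while 1 was higher and 2 lower in the MEP50 knockdown. DKC1 encodes dyskerin, the pseudouridine synthase of the particle. DKC1 (ENSG00000130826) had 193, 199 and 192 CPM in the PRMT5 knockdown, 189, 179 and 175 CPM in the MEP50 knockdown and 151, 152 and 149 CPM in the GFP control. The groups did not overlap and the GFP control was lowest. DKC1 had a log2 fold change of 0.37 ± 0.0328 (SE) in the PRMT5 knockdown (edgeR adjusted p = 1.73e-12) and of 0.27 ± 0.0333 in the MEP50 knockdown (adjusted p = 8.62e-09). DKC1 averaged a log2 fold change of 0.32 ± 0.0289 over both knockdowns (SE, edgeR adjusted p = 2.63e-12). GAR1, a core protein of the particle, had opposite calls. GAR1 (ENSG00000109534) had 48.6, 46.1 and 43.6 CPM in the PRMT5 knockdown, 34.4, 31.1 and 32.0 CPM in the MEP50 knockdown and 39.1, 35.6 and 39.6 CPM in the GFP control. GAR1 had a log2 fold change of 0.27 ± 0.0589 (SE) in the PRMT5 knockdown (edgeR adjusted p = 0.000148) and of -0.23 ± 0.0621 in the MEP50 knockdown (adjusted p = 0.00189). The MEP50 knockdown lay below and the PRMT5 knockdown above every GFP library. NHP2, another core protein, was lower in the MEP50 knockdown. NHP2 (ENSG00000145912) had 132, 129 and 130.5 CPM in the PRMT5 knockdown, 121, 122 and 118 CPM in the MEP50 knockdown and 136, 135 and 134 CPM in the GFP control. NHP2 had a log2 fold change of -0.049 ± 0.0339 (SE) in the PRMT5 knockdown (edgeR adjusted p = 0.234) and of -0.17 ± 0.0345 in the MEP50 knockdown (adjusted p = 8.33e-05). Its PRMT5-knockdown libraries were also all below the GFP range, by a smaller step that did not pass.

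**Figure D5:**
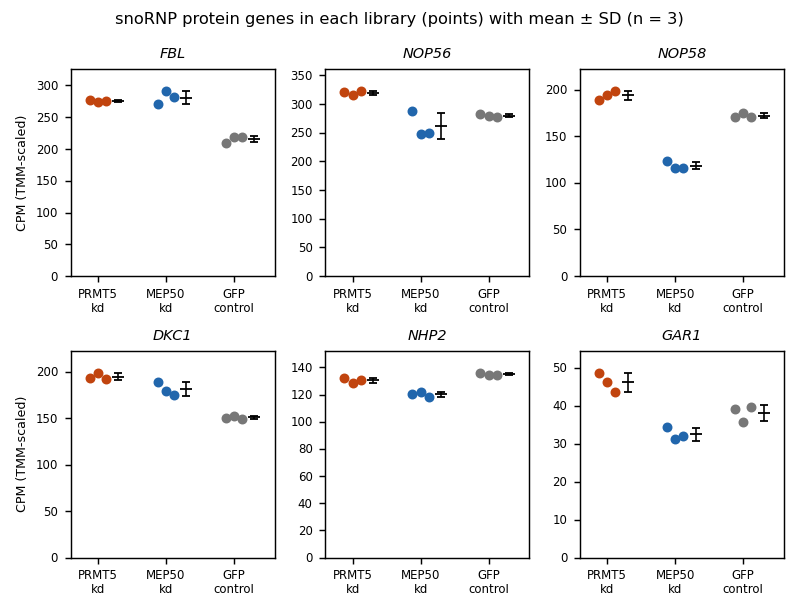
TMM-scaled CPM of 6 core snoRNP genes in each library (points) with mean ± SD (n = 3), for the PRMT5 knockdown, the MEP50 knockdown and the GFP control. FBL and DKC1 are above the GFP control in both knockdowns, while NOP58 and GAR1 are above it in the PRMT5 knockdown and below it in the MEP50 knockdown.

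The 3 nucleolar phosphoproteins were higher in the PRMT5 knockdown and over both knockdowns, and NPM1 was the 1 higher in the MEP50 knockdown. NCL encodes nucleolin, a chaperone of the precursor rRNA. NCL (ENSG00000115053) had 2091, 2036 and 2109 CPM in the PRMT5 knockdown, 1899.9, 1816 and 1845 CPM in the MEP50 knockdown and 1833, 1843 and 1801 CPM in the GFP control. The PRMT5 knockdown lay above the other groups, which overlapped. NCL had a log2 fold change of 0.19 ± 0.0240 (SE) in the PRMT5 knockdown (edgeR adjusted p = 1.50e-08) and of 0.022 ± 0.0240 in the MEP50 knockdown (adjusted p = 0.47). NCL averaged a log2 fold change of 0.10 ± 0.0209 over both knockdowns (SE, edgeR adjusted p = 4.63e-05). NPM1, nucleophosmin, is a chief constituent of the outer nucleolus. NPM1 (ENSG00000181163) had 2789.9, 2764 and 2926 CPM in the PRMT5 knockdown, 2796, 2706 and 2679 CPM in the MEP50 knockdown and 2559, 2559.8 and 2664 CPM in the GFP control. Each knockdown lay above the GFP control. NPM1 had a log2 fold change of 0.12 ± 0.0248 (SE) in the PRMT5 knockdown (edgeR adjusted p = 5.78e-05) and of 0.072 ± 0.0248 in the MEP50 knockdown (adjusted p = 0.0141). NPM1 averaged a log2 fold change of 0.10 ± 0.0216 over both knockdowns (SE, edgeR adjusted p = 0.000185). NOLC1, a snoRNP chaperone, had a log2 fold change of 0.19 ± 0.0284 in the PRMT5 knockdown (SE, edgeR adjusted p = 4.26e-07) and -0.0007 ± 0.0286 in the MEP50 knockdown (adjusted p = 0.985). The call of NPM1 in the MEP50 knockdown was lost in edgeR without GFP control replicate 1 or 2 or MEP50 knockdown replicate 1, 1 library at a time (log2 fold change 0.057 to 0.065, adjusted p 0.0575 to 0.104), and under 1 other setting. NPM1 has 45 named pseudogenes in the GENCODE 29 annotation and NCL has 2, so their reads may be shared with near copies. The same holds for the rest of the 8 genes with named pseudogenes. RRN3 and NOP56 have 3 each, NHP2, PES1 and NOC2L have 2 each, and LTV1 has 1.

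Among the 9 large subunit assembly genes, 4 were higher and none lower in the PRMT5 knockdown, and 2 were higher and 3 lower in the MEP50 knockdown. The counts of the MEP50 knockdown, 22.2% higher and 33.3% lower, lie near the 26.5% and 25.2% over all genes. The mean of both was higher for 3 and lower for 2. PES1, which with WDR12 and BOP1 forms the PeBoW complex, was higher in both knockdowns. PES1 (ENSG00000100029) had 144, 144 and 153 CPM in the PRMT5 knockdown, 132, 128 and 126 CPM in the MEP50 knockdown and 116, 125 and 117 CPM in the GFP control. The groups did not overlap, and the GFP control was lowest. PES1 had a log2 fold change of 0.30 ± 0.0367 (SE) in the PRMT5 knockdown (edgeR adjusted p = 7.82e-09) and of 0.11 ± 0.0375 in the MEP50 knockdown (adjusted p = 0.0171). The call of PES1 in the MEP50 knockdown was lost in edgeR without GFP control replicate 1 or 3 or MEP50 knockdown replicate 1, 1 library at a time (log2 fold change 0.088 to 0.093, adjusted p 0.0604 to 0.0853), and under 1 other setting. WDR12, its partner, passed in neither. WDR12 (ENSG00000138442) had 61.0, 61.8 and 60.9 CPM in the PRMT5 knockdown, 67.0, 59.7 and 62.1 CPM in the MEP50 knockdown and 66.6, 64.6 and 61.1 CPM in the GFP control. The 3 groups overlapped. WDR12 had a log2 fold change of -0.065 ± 0.0480 (SE) in the PRMT5 knockdown (edgeR adjusted p = 0.271) and of -0.027 ± 0.0488 in the MEP50 knockdown (adjusted p = 0.677).

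NOP2, an rRNA methyltransferase, and GNL3, the nucleolar GTPase nucleostemin, fell in the MEP50 knockdown. NOP2 (ENSG00000111641) had 143, 144 and 154 CPM in the PRMT5 knockdown, 127, 116 and 119 CPM in the MEP50 knockdown and 154, 147 and 149 CPM in the GFP control. GNL3 (ENSG00000163938) had 170.2, 173 and 176 CPM in the PRMT5 knockdown, 156, 137 and 141 CPM in the MEP50 knockdown and 179, 174 and 182 CPM in the GFP control. For both, the PRMT5 knockdown overlapped the GFP control and the MEP50 knockdown lay below every other library. NOP2 had a log2 fold change of -0.024 ± 0.0371 (SE) in the PRMT5 knockdown (edgeR adjusted p = 0.619) and of -0.31 ± 0.0382 in the MEP50 knockdown (adjusted p = 4.34e-09). GNL3 had a log2 fold change of -0.041 ± 0.0365 (SE) in the PRMT5 knockdown (edgeR adjusted p = 0.37) and of -0.30 ± 0.0373 in the MEP50 knockdown (adjusted p = 5.69e-09).

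RRS1, which helps to place the small rRNA of the large subunit, rose in the PRMT5 knockdown by 0.33 ± 0.0628 (log2 fold change, SE, edgeR adjusted p = 4.60e-05) and had a log2 fold change of 0.073 ± 0.0650 in the MEP50 knockdown (adjusted p = 0.371). NOC2L and NOC3L are related nucleolar proteins of the early large subunit. NOC3L rose in the PRMT5 knockdown by 0.22 ± 0.0400 (log2 fold change, SE, edgeR adjusted p = 9.96e-06) and in the MEP50 knockdown by 0.12 ± 0.0407 (adjusted p = 0.0121). NOC2L fell in the MEP50 knockdown with -0.20 ± 0.0331 (log2 fold change, SE, edgeR adjusted p = 3.14e-06) and had a log2 fold change of 0.067 ± 0.0323 in the PRMT5 knockdown (adjusted p = 0.083). NOP16 rose in the PRMT5 knockdown by 0.23 ± 0.0521 (log2 fold change, SE, edgeR adjusted p = 0.000288), and RRP1 passed in neither knockdown. The call of NOC3L in the MEP50 knockdown was lost in edgeR without MEP50 knockdown replicate 1 (log2 fold change 0.077, adjusted p = 0.119).

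The 4 genes of late small subunit maturation split. NOB1, the endonuclease that makes the last cut of the small subunit rRNA, was higher in both knockdowns. NOB1 (ENSG00000141101) had 98.1, 96.5 and 106 CPM in the PRMT5 knockdown, 108, 101 and 100.04 CPM in the MEP50 knockdown and 72.4, 73.9 and 72.3 CPM in the GFP control. Both knockdowns lay above the GFP control and overlapped each other. NOB1 had a log2 fold change of 0.46 ± 0.0420 (SE) in the PRMT5 knockdown (edgeR adjusted p = 3.41e-12) and of 0.50 ± 0.0426 in the MEP50 knockdown (adjusted p = 4.91e-13). NOB1 averaged a log2 fold change of 0.48 ± 0.0372 over both knockdowns (SE, edgeR adjusted p = 2.59e-14). BYSL, bystin, was lower in both. BYSL (ENSG00000112578) had 41.4, 44.7 and 41.8 CPM in the PRMT5 knockdown, 36.1, 33.8 and 38.9 CPM in the MEP50 knockdown and 48.8, 46.7 and 45.3 CPM in the GFP control. The MEP50 knockdown was lowest and no groups overlapped. BYSL had a log2 fold change of -0.14 ± 0.0568 (SE) in the PRMT5 knockdown (edgeR adjusted p = 0.0443) and of -0.36 ± 0.0588 in the MEP50 knockdown (adjusted p = 1.52e-06). BYSL averaged a log2 fold change of -0.25 ± 0.0496 over both knockdowns (SE, edgeR adjusted p = 4.33e-05). RRP12, an export factor with HEAT repeats, fell in the MEP50 knockdown. RRP12 (ENSG00000052749) had 111, 113 and 119 CPM in the PRMT5 knockdown, 95.3, 83.5 and 92.5 CPM in the MEP50 knockdown and 124, 119 and 118 CPM in the GFP control. The PRMT5 knockdown overlapped the GFP control. RRP12 had a log2 fold change of -0.076 ± 0.0411 (SE) in the PRMT5 knockdown (edgeR adjusted p = 0.124) and of -0.41 ± 0.0425 in the MEP50 knockdown (adjusted p = 8.23e-11). RRP12 averaged a log2 fold change of -0.24 ± 0.0358 over both knockdowns (SE, edgeR adjusted p = 2.57e-07).

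LTV1, an assembly factor of the late small subunit, had opposite calls. LTV1 (ENSG00000135521) had 80.0, 76.9 and 83.3 CPM in the PRMT5 knockdown, 65.9, 67.8 and 62.1 CPM in the MEP50 knockdown and 68.4, 73.9 and 74.1 CPM in the GFP control. Its PRMT5-knockdown libraries lay above and its MEP50-knockdown libraries below every GFP library. LTV1 had a log2 fold change of 0.15 ± 0.0455 (SE) in the PRMT5 knockdown (edgeR adjusted p = 0.00577) and of -0.15 ± 0.0472 in the MEP50 knockdown (adjusted p = 0.00797). The call of LTV1 in the PRMT5 knockdown was lost in edgeR without GFP control replicate 1 or PRMT5 knockdown replicate 3, 1 library at a time (log2 fold change 0.11, adjusted p 0.0539 to 0.0812). The call of LTV1 in the MEP50 knockdown was lost in edgeR without MEP50 knockdown replicate 3 (log2 fold change -0.12, adjusted p = 0.0638). The call of BYSL in the PRMT5 knockdown was lost in edgeR without GFP control replicate 1 or 2 or PRMT5 knockdown replicate 1 or 3, 1 library at a time (log2 fold change -0.11 to -0.14, adjusted p 0.0731 to 0.151), and under 2 other settings.

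A wider list of 111 other ribosome biogenesis genes, of which 109 were found and tested, was counted in the same way. In the mean of both knockdowns 41 were higher and 19 lower, which is 37.6% and 17.4% of the list against 26.8% and 26.9% of all genes tested, with a median log2 fold change of 0.042. In the PRMT5 knockdown 56 were higher and 11 lower (51.4% and 10.1%, against 26.1% and 24.9% of all genes; median 0.11). In the MEP50 knockdown 27 were higher and 30 lower (24.8% and 27.5%, median -0.0088), shares near the 26.5% and 25.2% of all genes. The count of 11 lower became 7 without PRMT5 knockdown replicate 2. The PRMT5 minus MEP50 log2 difference was above 0 for 94 of the 109, and 55 had every PRMT5-knockdown library above every MEP50-knockdown library, while 6 had every one below (50.5% and 5.5%, against 23.1% and 24.2% of all genes). That contrast is the one behind the choice of the genes above, and nothing is read from these shares. Among roles of the wider list, the processome and the large subunit had the largest shares higher with PRMT5 knocked down. Of its 48 large subunit genes, 29 (60.4%) were higher and 6 (12.5%) lower, beside 26.1% and 24.9% of all genes. With MEP50 knocked down, 10 (20.8%) were higher and 13 (27.1%) lower, near the 26.5% and 25.2% of all genes. Of its 24 processome genes, 15 were higher and 1 lower in the PRMT5 knockdown, against 9 higher and 6 lower in the MEP50 knockdown. Shares higher with PRMT5 knocked down were smaller for its polymerase I (20%), exosome (35.7%), late small subunit (40%) and box H/ACA genes (33.3%). Those roles hold 10, 14, 10 and 3 genes, with 1, 2, 1 and none lower.

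RSL24D1, a placeholder protein of the maturing large subunit, had the largest change on that list. RSL24D1 (ENSG00000137876) had 232, 229 and 224 CPM in the PRMT5 knockdown, 265, 262 and 249 CPM in the MEP50 knockdown and 96.7, 100.2 and 99.97 CPM in the GFP control. Every library of either knockdown lay far above every GFP library. RSL24D1 had a log2 fold change of 1.20 ± 0.0328 (SE) in the PRMT5 knockdown (edgeR adjusted p = 3.13e-29) and of 1.39 ± 0.0330 in the MEP50 knockdown (adjusted p = 4.73e-31). FCF1, a PIN-domain processome protein, NOM1, which docks an RNA helicase, and MAK16 were next among those higher in the mean of both, with 0.37, 0.37 and 0.31 (edgeR adjusted p = 1.41e-10, 6.61e-08 and 3.97e-10). The 4 lowest in the mean of both were MPHOSPH6, an RNA exosome cofactor, POLR1C, a subunit shared by RNA polymerases I and III, NAF1, an H/ACA assembly factor, and RRP15. Their log2 fold changes were -0.27, -0.26, -0.25 and -0.23 (edgeR adjusted p = 4.87e-06, 0.0015, 0.000183 and 7.49e-07).

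Of the RNAs that take part in processing, SNORD3A (a U3 snoRNA gene), SNORA73A, RMRP and RPPH1 were not matched to the count table and are not analysed here. SNORD118, the U8 snoRNA, had no reads counted, which does not show that it was absent from the cells. SNORD13 had a log2 fold change of -0.32 ± 0.232 in the PRMT5 knockdown (SE, edgeR adjusted p = 0.26) and -0.52 ± 0.244 in the MEP50 knockdown (adjusted p = 0.0722). SNORA73B had a log2 fold change of -0.052 ± 0.151 in the PRMT5 knockdown (SE, edgeR adjusted p = 0.81) and 0.40 ± 0.150 in the MEP50 knockdown (adjusted p = 0.0687). Neither passed.

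The authors' deposited tables list the genes they called by both DESeq2 and edgeR, 6808 for the PRMT5 knockdown and 6833 for the MEP50 knockdown. These equal 46.7% and 46.9% of the number of genes tested here. How many of all the listed genes were higher or lower was not counted, so nothing is read from the counts that follow. The authors' deposited table for the PRMT5 knockdown lists 30 of the 48 genes, 29 higher and 1 lower, and that for the MEP50 knockdown lists 27, 11 higher and 16 lower. All of these had an edgeR adjusted p below 0.05 and the same sign in the fit used here, which rests on the same counts. UTP18, WDR36, NOP14 and BYSL were called here in the PRMT5 knockdown but are not in the authors' list for it. The same holds for NOP56 and NPM1 in the MEP50 knockdown. Exons of 9 of the 48 genes overlap another gene on the same strand and those of 19 a gene on the opposite strand in GENCODE 29, and the strand setting of the counting is not given in the sources used here. The 9 with overlap on the same strand are NOP58, NOP56, DKC1, GNL3, LTV1, NOP2, HEATR1, WDR46 and RRS1. The part of these overlaps in the results was not tested.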

How the data were processed

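RNA was sequenced from 9 libraries, 3 per group. Reads were counted per Ensembl gene with HTSeq by the authors, and the deposited counts are whole and not normalized, per the file headers. STAR, Trim Galore and hg19 are named in the submitters' processing notes. The authors' deposited tables also hold log2 fold changes, p-values, a mean normalized signal and test scores from DESeq2 and edgeR. Here counts were scaled by TMM and fitted in edgeR 4.0.16 (R 4.3.3, quasi-likelihood, Benjamini-Hochberg at 0.05) over 14582 genes that passed filterByExpr, with group as the only term. The 5 HTSeq summary lines, which name no gene, were left out; reads outside annotated genes were 11.9% to 14.5% of a library. The fit was tested on simulated data with 200 changed genes. DESeq2 1.42.0, other scalings, other filters, fits without 1 library each and a fit of 6 libraries were alternatives. Libraries that differ only in replicate number were treated as unpaired. The genes, lists and tests were chosen with earlier results of these data known. Values per library are given for the UTP genes, for genes fixed by role and for the 4 largest changes in each direction in each comparison with the GFP control. They are also given for WDR75, LTV1, NOP2 and GNL3, which fall outside those rules. WDR75 and LTV1 had opposite calls in the separate knockdowns, and NOP2 and GNL3 fell in the MEP50 knockdown. RSL24D1 and the others named from the wider list are its 4 largest in each direction in the mean of both knockdowns. GENCODE 29 gave exon lengths. Protein sequences were not analysed here.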

Additional observations from a re-analysis of the deposited data

Results flagged for a closer look

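For 7 of the 48 genes, every PRMT5-knockdown library and every MEP50-knockdown library lay on opposite sides of all GFP-control libraries, with the PRMT5 knockdown above and the MEP50 knockdown below. Over all 14582 genes tested, 282 (1.93%) had this pattern and 292 (2%) the opposite one, and since the choice of the genes favours the first, nothing is read from the count. The difference itself was not tested, because the genes were chosen for it. The PRMT5 minus MEP50 log2 difference was 0.24 for POLR1A, 0.34 for WDR75, 0.28 for UTP11, 0.71 for NOP58, 0.50 for GAR1, 0.26 for NOC2L and 0.30 for LTV1. NOP58 and GAR1 belong to the core of the box C/D and box H/ACA particles, POLR1A is the catalytic subunit of RNA polymerase I, WDR75 and UTP11 are processome proteins, NOC2L acts on the large subunit and LTV1 on the late small subunit.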

How the results depend on the processing

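Of 93 calls over 48 genes and 3 comparisons, 76 held under every alternative run, 17 were lost under at least 1, and no call reversed. Of the genes not called, 2 gained a call under some alternative in the mean of both knockdowns. In the PRMT5 knockdown 1 did so, and in the MEP50 knockdown 4. NOC2L, not called in the mean of both (edgeR adjusted p = 0.0501), was called lower there in 11 of 16 alternatives, DESeq2 among them. Some values that were not called changed sign, as for POLR1A in the mean of both knockdowns (log2 fold change -0.0144 to 0.0322). The count of genes lower in the PRMT5 knockdown, 2, was 1 with library totals alone, and it ranged from 1 to 2 with 1 library left out. Without 1 library, the counts of the 48 genes were 19 to 21 higher and 9 to 10 lower for the mean of both knockdowns, 29 to 31 higher for the PRMT5 knockdown, and 8 to 13 higher and 14 to 17 lower for the MEP50 knockdown. For the wider list the count lower in the PRMT5 knockdown, 11, ranged from 7 to 12. The share of promoters with CACGTG, 42.9%, was 9.52% with the 250 bases before the start alone; the matches past the start are not in that window. The other counts stayed within 1.5 times of their main value. The cause of the lost calls was not tested.

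Samples with the same replicate number did not deviate together: their correlations ran from -0.036 to 0.052, none above 0.1. With the replicate block, the count lower in the PRMT5 knockdown was 1, since BYSL no longer passed, and no other count moved by over 1.5 times. At 20806181 to 31586128 reads per library and 3 libraries per group, the lost calls had main log2 fold changes of at most 0.18 in size.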
